A study of Homo sapiens with 6 samples.

Results

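The BCL2 family, the caspases and the death receptors, 43 genes in all, were followed in a pair of human cybrids that share a nucleus and differ in their mitochondria. The genes were chosen by their role in apoptosis, at a time when earlier results of these data were known. A probe set assigned to 1 gene only was found for 40 of the 43, out of 19775 genes measured. BBC3, BIRC3 and RIPK1 were not analysed here. The 40 genes had 131 probe sets between them, and the brightest one, by its mean over the 6 arrays, stood for the gene.

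A cybrid is made by fusing an enucleated cell, which brings its mitochondria, with a cell that has lost its own mitochondrial DNA. Both groups had the nucleus of 143B p0, the form of a thymidine-kinase-deficient osteosarcoma line that lacks mitochondrial DNA. The 10A/143B cybrid received mitochondria of MCF10A, a non-cancerous breast epithelial line, and the 468/143B cybrid those of MDA-MB-468, a line of metastatic breast cancer. All donors were enucleated with actinomycin-D and fused with polyethylene glycol, and selection of both cybrids used medium with bromodeoxyuridine and no uridine. Each cybrid was measured on 3 arrays, from RNA extracted in triplicate. The labels disagree in part, since the source names and the extraction protocol name the cybrids, whereas the titles and the cell line field name only the donor lines. The cybrid names were followed here. The labels do not say whether a cybrid was 1 clone or a pool, or whether the extracts came from separate cultures, so p-values measure only the spread between these arrays. By its title, the series is about effects of non-cancerous mitochondria on oncogenic signalling in metastatic cells.

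Apoptosis runs through mitochondria or through receptors at the cell surface. In the mitochondrial route, BH3-only proteins neutralise the pro-survival relatives of BCL2 or activate the effectors, which open the outer mitochondrial membrane. Cytochrome c then leaves the mitochondrion and assembles APAF1 into the apoptosome, which activates caspase 9, while DIABLO and HTRA2 leave as well and bind the inhibitor of apoptosis proteins (IAPs). In the receptor route, ligands of the TNF family gather adaptors and caspase 8 at the receptor, and CFLAR, a caspase homologue without protease activity, limits that step. Caspase 8 can also cut BID, which links the routes.

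Median intensities per array ran from 20.4 to 24.4. Replicates 2 and 3 were near duplicates in both groups. Among the 8172 brighter probe sets (mean log2 over 8), the SD between them was 0.0790 for 10A/143B and 0.0919 for 468/143B, against 0.263 to 0.283 between either of them and replicate 1. They were therefore averaged and counted as 1 sample, which left 2 samples against 2. As a sign of RNA integrity, the ACTB probe sets gave a 3′/5′ ratio of 1.18 on replicate 1 of 468/143B and 1.59 to 1.92 on the other arrays. That array did not stand apart for GAPDH, at 0.966 against 0.933 to 1.07 on the others. Of the keratins, KRT5, which marks basal epithelium, had an intensity of at most 2.07 on any array, while KRT18 had 4705 to 6427 and KRT8 164 to 461. VIM, a mesenchymal filament, had 7804 to 9027. TK1, the thymidine kinase gene that the 143B line lacks in function, had 199 to 212 in 10A/143B and 380.0 to 428 in 468/143B (log2 -0.91, adjusted p = 0.00302). Summed over 7 epithelial markers, intensity ran from 4954 to 5454 on the 10A/143B arrays and from 6406 to 6970 on the 468/143B arrays, that of 7 osteoblast and mesenchyme markers 9198 to 10001 and 8774 to 9973, and that of 5 blood and endothelium markers 174 to 203 and 130.3 to 170.4. KRT18 made up most of the epithelial sum and VIM most of the osteoblast and mesenchyme sum. PECAM1, with 94.4 to 158, made up most of the blood and endothelium sum. Of the osteoblast and mesenchyme markers, SP7 had at most 16.9, COL1A2 13.1 and ALPL 46.5 on any array. COL1A1 had 41.6 to 107, SPP1 204 to 404.5 and RUNX2 488 to 626. Of these lists, KRT8 was lower (-1.09, adjusted p = 0.00375) and SPP1, an osteoblast and mesenchyme marker, higher in 10A/143B (0.65, adjusted p = 0.022). The part of these differences in the results was not tested.

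Of the 40 apoptosis genes, 8 were higher and 8 lower in 10A/143B at an adjusted p under 0.05 (limma, Benjamini-Hochberg over all genes). Over all genes, 22.7% passed, 13.8% higher and 8.9% lower. The median log2 difference was -0.05 in the set and -0.02 over all genes. Most of the set lay at or above the median level (5.51 on the log2 scale), namely 36 of 40 genes. Of these 36, 44.4% passed, against 36.4% of all genes at that level. The 16 changes ran from 1.33-fold to 3.42-fold, and 9 were at least 2-fold. A fold change is on the scale log2(intensity + 16) and understates the change of dim genes. The arrays did not overlap between the cybrids for any of the 16, nor for 27 of the 40 genes in all, against 45.8% of all genes. That share is not matched for level, since only 12103 of the 19775 genes lay at or above the median level. On 6 separate arrays 12 were higher and 10 lower (35.6% of all genes passed, 19.9% higher and 15.7% lower), and with the replicate number as a block 9 and 11 (31.6% of all genes passed). The block added BAX, BAK1, BCL2L11 and FAS, whose values are given below. Of the arrays left out in turn, replicate 1 of 468/143B moved the counts furthest, and they were 5 higher and 4 lower without it (9.58% of all genes passed). Without replicate 1 of 10A/143B, 8 were higher and 5 lower (15% of all genes passed).

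The probe set chosen also mattered. With all probe sets of a gene averaged, 5 were higher and 3 lower (16.3% of all genes passed). With probe sets that can cross-hybridise left out (suffix _x_at or _s_at), 5 were higher and 1 lower (20.4% of all genes passed). With each of the 131 probe sets taken alone, 16 were higher and 14 lower (17.9% of all probe sets passed). Without an intensity trend in the variance, 6 were higher and 5 lower (16.3% of all genes passed).

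**Figure D1:**
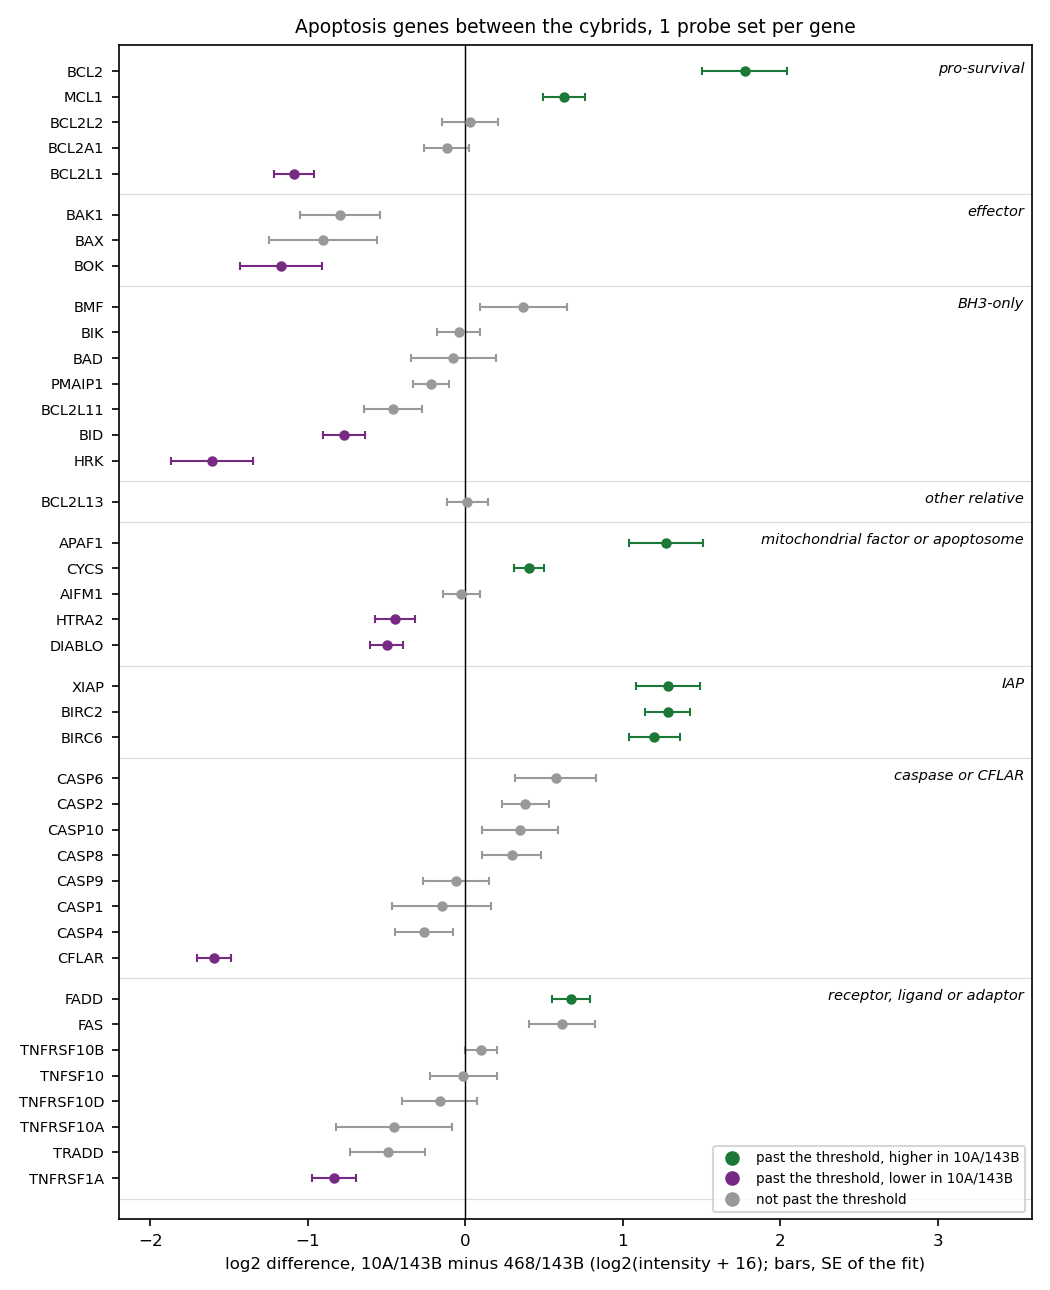
Log2 difference (10A/143B minus 468/143B, on log2(intensity + 16)) of the 40 genes by role, 1 probe set per gene, with bars for the SE of the fit to 2 samples per group. Green and purple points passed the threshold and grey points did not. The 3 IAPs lie between 1.20 and 1.29, BCL2 is highest at 1.78 and HRK lowest at -1.61.

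The pro-survival relatives of BCL2 went in both directions. BCL2 and MCL1 were higher in 10A/143B, BCL2L1 was lower, and BCL2L2 and BCL2A1 did not pass. BCL2, which holds the effectors in check at the mitochondrial membrane, had intensities of 154, 129 and 129 on the 10A/143B arrays (replicates 1, 2 and 3, in that order here and below) and 26.0, 34.1 and 34.3 on the 468/143B arrays. The lowest 10A/143B array was thus far above the highest 468/143B array, and the difference was 3.42-fold (log2 1.78 ± 0.27, SE, adjusted p = 0.00292). The other 3 probe sets of BCL2 went the other way, with -0.75, -0.88 and -0.17, none past the threshold. The mean of its probe sets differed by -0.0054 (adjusted p = 0.99).

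BCL2L1, whose long form BCL-XL protects mitochondria in the same way, had intensities of 298, 333 and 335 in 10A/143B and 666, 685 and 739 in 468/143B. Every 10A/143B array was lower, by 2.12-fold on average (log2 -1.09 ± 0.12, adjusted p = 9.44e-04). Among its other probe sets, 2 passed with larger differences, -1.96 and -2.33. The dimmest gave -0.34 and did not pass. On the probe set with the largest difference the intensities were 14.2, 30.7 and 30.9 against 176, 174 and 169. Short and long forms of BCL2L1 have opposite roles, and which form a probe set reads is not given in the sources used here.

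MCL1, a short-lived pro-survival protein, had intensities of 3822, 4804 and 4871 in 10A/143B and 2647, 2998 and 2837 in 468/143B. Replicate 1 was the lowest array of each group, and the groups did not overlap. The difference was 1.54-fold (log2 0.63 ± 0.13, adjusted p = 0.0114). A further probe set was higher by 0.62 and passed, whereas 4 did not (-0.02 to 0.66), among them the brightest without a cross-hybridisation suffix (-0.02). The call was lost with probe sets averaged (0.37, adjusted p = 0.381) and without an intensity trend (adjusted p = 0.0822). Without replicate 1 of 468/143B the difference was 0.56. BCL2L2, or BCL-W, differed by 0.03 ± 0.18 and BCL2A1, a target of NF-kB, by -0.12 ± 0.14. Their arrays overlapped.

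All 3 effectors had lower values in 10A/143B, and 1 of them passed (8.9% of all genes passed as lower). BOK had intensities of 147, 280.1 and 232 in 10A/143B and 383, 556 and 534 in 468/143B, a difference of 2.25-fold (log2 -1.17 ± 0.26, adjusted p = 0.0147). Replicate 1 was the lowest array of both groups, and without that of 10A/143B the difference was -0.80. The gene did not pass with probe sets averaged (-0.42, adjusted p = 0.213) or without an intensity trend (adjusted p = 0.0665). Its other probe set, below the median level in both cybrids, gave 0.33. BAX had intensities of 45.6, 65.3 and 70.0 against 164, 82.1 and 85.0. Its difference of -0.90 ± 0.34 did not pass (adjusted p = 0.107, but 0.0299 with the replicate block), and its other probe set gave -0.98. Replicate 1 of 468/143B held the highest BAX value. BAK1 had intensities of 88.6, 167 and 138 against 231, 208 and 189, without overlap, and its difference of -0.79 ± 0.25 also did not pass (adjusted p = 0.0587, but 0.0104 with the block).

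Among the 7 BH3-only genes measured, 2 were lower in 10A/143B (8.9% of all genes were) and the others did not pass. HRK, first described in neurons, had intensities of 44.9, 33.4 and 34.3 in 10A/143B and 141, 172 and 155 in 468/143B. The 468/143B arrays were all higher, by 3.05-fold (log2 -1.61 ± 0.26, adjusted p = 0.00361). The 4 other probe sets of HRK, below the median level in both cybrids, gave -0.14 to 0.40. The HRK call was lost with probe sets averaged (-0.21, adjusted p = 0.548). Without replicate 1 of 468/143B the difference was -1.71. BID had intensities of 369.7, 329 and 288 against 584, 576 and 600.5. It was 1.70-fold lower (log2 -0.77 ± 0.13, adjusted p = 0.00501), and its other probe sets gave 0.10 and -0.10. The BID call was lost with probe sets averaged (-0.26, adjusted p = 0.229) and on unsuffixed probe sets (-0.10, adjusted p = 0.781). Without replicate 1 of 468/143B the difference stayed at -0.77.

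BCL2L11, or BIM, had intensities of 383, 560.3 and 553 in 10A/143B and 592, 653 and 734 in 468/143B. The difference of -0.46 ± 0.18 did not pass (adjusted p = 0.12, but 0.0088 with the block), although the arrays did not overlap. The 7 probe sets of BCL2L11 disagreed, since 1 passed as lower (-1.72, with intensities of 16.6, 22.5 and 26.2 against 108, 91.1 and 108) and 1 as higher (1.61, with 141, 84.4 and 81.6 against 21.3, 27.3 and 30.7). The gene has many splice forms, and which of them these probe sets read is not given in the sources used here. PMAIP1, or NOXA, differed by -0.22 ± 0.12, BMF by 0.37 ± 0.28 and BAD by -0.07 ± 0.27, none past the threshold. BIK had intensities of 1 to 2.89 on all 6 arrays. BCL2L13, a BCL2 relative of the mitochondrial membrane, differed by 0.01 ± 0.13 on the probe set used, and another of its 5 probe sets passed as lower (-1.14).

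**Figure D2:**
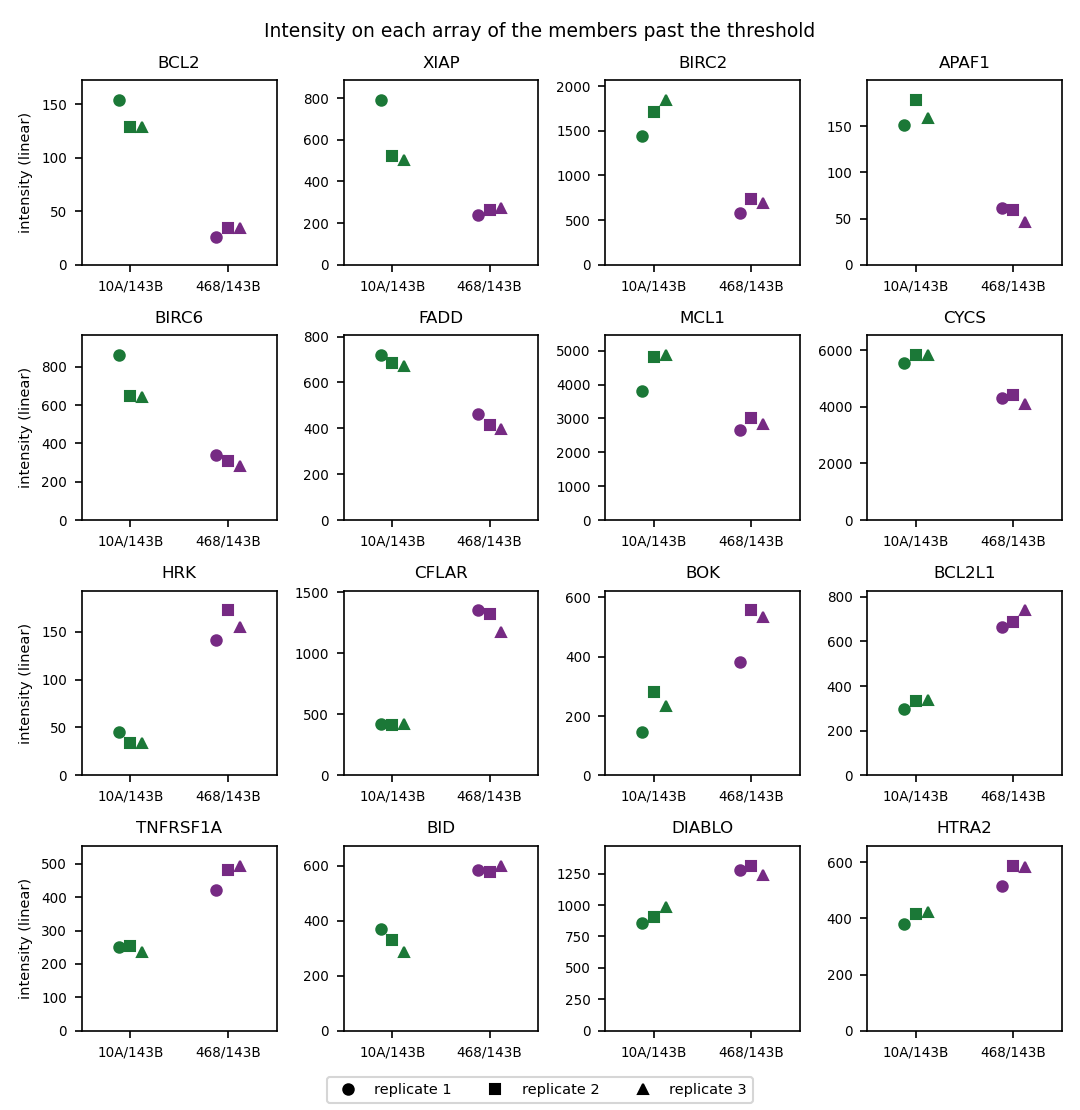
Intensity (linear scale, axis from 0) on each of the 6 arrays for the 16 genes past the threshold, with circles, squares and triangles for replicates 1, 2 and 3. Green points are 10A/143B and purple points 468/143B, and no panel has overlapping groups. BIRC2 lies at 1438 to 1846 against 584 to 734.

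Of the factors that act once mitochondria are opened, APAF1 and CYCS were higher in 10A/143B and DIABLO and HTRA2 lower. APAF1, the scaffold of the apoptosome, had intensities of 151, 179 and 159 in 10A/143B and 61.0, 59.3 and 45.9 in 468/143B. Its lowest 10A/143B array was above every 468/143B array, by 2.42-fold on average (log2 1.28 ± 0.23, adjusted p = 0.00614). The other 2 probe sets of APAF1, both below the median level, gave -0.05 and -0.09. CYCS encodes cytochrome c, which also carries electrons in the respiratory chain. It had intensities of 5557, 5833 and 5833 against 4329.5, 4421 and 4096, a difference of 1.33-fold (log2 0.41 ± 0.10, adjusted p = 0.0193), and its other probe sets gave 0.23 and 0.83, neither past the threshold.

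DIABLO, the protein also named SMAC, had intensities of 861, 904 and 982 in 10A/143B and 1278, 1314 and 1243 in 468/143B. All 468/143B arrays were higher, by 1.41-fold (log2 -0.50 ± 0.10, adjusted p = 0.0108). HTRA2, a mitochondrial protease that likewise binds IAPs, had intensities of 380.0, 416 and 425 against 516, 588 and 584 and was 1.36-fold lower (log2 -0.44 ± 0.13, adjusted p = 0.0424). This was the weakest of the 16 calls, and it was lost in 7 of 18 alternatives, after correction for gene length (-0.30, adjusted p = 0.145) and with every probe set tested (adjusted p = 0.0675) among them. Without replicate 1 of 468/143B, the differences of APAF1 (1.36), CYCS (0.42), DIABLO (-0.50) and HTRA2 (-0.53) were at least as large as before. Without replicate 1 of 10A/143B, those of DIABLO (-0.43) and HTRA2 (-0.38) were smaller. APAF1 (0.38, adjusted p = 0.231) and CYCS (0.49, adjusted p = 0.116) lost their calls with probe sets averaged, and CYCS (adjusted p = 0.131) and DIABLO (adjusted p = 0.0866) without an intensity trend. AIFM1, a mitochondrial flavoprotein that can move to the nucleus in cell death, differed by -0.02 ± 0.12.

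The IAPs bind caspases or mark death proteins for degradation. The 3 of the set that were measured, XIAP, BIRC2 and BIRC6, were higher in 10A/143B. Of all genes 13.8% were higher, and of those at or above the median level 22.2%. XIAP, which inhibits caspases directly, had intensities of 792, 523 and 501 in 10A/143B and 237, 261 and 272 in 468/143B. Replicate 1 was the highest 10A/143B array, and the lowest was still above every 468/143B array. The difference was 2.44-fold (log2 1.29 ± 0.20, adjusted p = 0.00317). Of the 7 probe sets of XIAP, 5 passed as higher (0.88 to 1.29) and the 2 dimmest did not (0.08 and 0.23). The brightest without a cross-hybridisation suffix gave 505, 545 and 537 against 265, 247 and 258, a difference of 0.97.

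BIRC2, or cIAP1, a ubiquitin ligase of TNF receptor signalling, had intensities of 1438, 1710.3 and 1846 in 10A/143B and 584, 734 and 695 in 468/143B. Its groups lay far apart, with a difference of 2.44-fold (log2 1.29 ± 0.14, adjusted p = 8.79e-04). BIRC6, a very large IAP with ubiquitin-conjugating activity, had intensities of 861, 648 and 644 against 338, 309 and 280.1, a difference of 2.30-fold (log2 1.20 ± 0.16, adjusted p = 0.00168). Its other probe set agreed in direction and passed (1.11). The calls of XIAP, BIRC2 and BIRC6 were kept in every alternative in which the gene could be fitted (19, 19 and 18), with log2 differences from 0.80 to 1.44 in all. With the gene length trend removed they were 1.14, 1.25 and 0.90.

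A wider list, summarised below, held 3 more IAP genes, with differences from -0.87 to 0.84. Of these, 0 passed in limma (22.7% of all genes did), 1 passed on 6 separate arrays (35.6%) and 2 with the replicate block (31.6%). NAIP gave 0.84 ± 0.31 (adjusted p = 0.0936), BIRC5 0.09 ± 0.11 (adjusted p = 0.681) and BIRC7 -0.87 ± 0.54 (adjusted p = 0.331).

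Because XIAP, BIRC2 and BIRC6 moved the same way, the 250 bases before a start site of each are shown, from RefSeq on GRCh38.p14, 5′ to 3′ on the plus strand. Capitals mark GGGCGG, the GC box that SP1 family factors bind. The windows lie at chrX:123859458-123859707, chr11:102346964-102347213 and chr2:32356773-32357022, and each is the first listed of 3, 2 and 2 start sites.
XIAP: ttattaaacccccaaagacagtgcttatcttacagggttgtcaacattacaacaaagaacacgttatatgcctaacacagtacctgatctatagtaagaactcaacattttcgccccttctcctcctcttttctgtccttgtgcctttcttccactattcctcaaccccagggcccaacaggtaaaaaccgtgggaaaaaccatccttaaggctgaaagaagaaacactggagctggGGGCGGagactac
BIRC2: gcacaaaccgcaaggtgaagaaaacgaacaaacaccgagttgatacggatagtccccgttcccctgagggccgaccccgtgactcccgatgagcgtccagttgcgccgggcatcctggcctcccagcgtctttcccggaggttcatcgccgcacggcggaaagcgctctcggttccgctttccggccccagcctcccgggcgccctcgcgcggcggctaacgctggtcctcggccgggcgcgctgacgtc
BIRC6: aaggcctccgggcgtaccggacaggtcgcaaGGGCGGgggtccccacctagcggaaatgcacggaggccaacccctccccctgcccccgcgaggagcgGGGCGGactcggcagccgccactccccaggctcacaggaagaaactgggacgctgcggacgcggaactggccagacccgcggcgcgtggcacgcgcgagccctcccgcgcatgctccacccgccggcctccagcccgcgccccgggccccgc
On either strand, GGGCGG occurred 1 time in the XIAP window, 0 times in that of BIRC2 and 2 times in that of BIRC6. It was found in 42.6% of the 35116 windows of that length in the table, which hold every listed start site of a gene. With only the first listed start site, it was found in 21 of the 31 genes of the set that have one there. These figures count windows differently and cannot be compared. The CRE sequence TGACGTCA (1.65% of windows), CCAAT (32%) and the ETS sequence CCGGAAG (8.52%), also on either strand, had 0 matches in the 3 windows. The last 7 bases of the BIRC2 window begin a TGACGTCA that is completed past the start site, so that count depends on where the window ends.

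Of the 7 caspases of the set, 0 passed the threshold in limma, against 22.7% of all genes. On 6 separate arrays 3 passed, where 35.6% of all genes did. On the probe sets used, CASP2, CASP6, CASP8 and CASP10 had higher values in 10A/143B and CASP1, CASP4 and CASP9 lower ones. CASP8, the initiator at death receptors, had intensities of 184, 226 and 215 in 10A/143B and 177, 153 and 139 in 468/143B. The difference of 0.30 ± 0.19 did not pass (adjusted p = 0.344, and 0.0456 on 6 separate arrays). Its other probe sets gave 0.23 and -0.59, neither past the threshold. CASP6, an effector caspase, had intensities of 119, 106 and 93.7 against 78.2, 54.2 and 64 (0.58 ± 0.26, adjusted p = 0.167). Its other probe set had 113, 112 and 112 against 42.5, 41.1 and 49.9 and passed as higher in the test of all probe sets (1.10 ± 0.23, adjusted p = 0.0178). CASP2, an initiator that responds to DNA damage and spindle failure, had intensities of 329, 286 and 292 against 223, 244 and 242 (0.38 ± 0.15, adjusted p = 0.115, and 0.0201 on 6 arrays), and its 6 other probe sets gave -0.69 to 0.09. CASP9, the caspase of the apoptosome, differed by -0.06 ± 0.21. The inflammatory caspases CASP1 and CASP4 differed by -0.15 ± 0.32 and -0.26 ± 0.18. CASP10, a further caspase of death receptors, lay below the median level in both cybrids (0.35 ± 0.24). On the wider list, CASP5 (-0.26 ± 0.25) and CASP14 (0.27 ± 0.38) did not pass.

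CFLAR had the smallest adjusted p of the set. Its intensities were 422, 413 and 419 in 10A/143B and 1351, 1323 and 1176 in 468/143B. The 10A/143B arrays were close together and all below the others, by 3.02-fold (log2 -1.60 ± 0.11, adjusted p = 2.05e-04). Of the 14 probe sets of CFLAR, 4 passed as lower (-2.25 to -1.60), all with the suffix _x_at for possible cross-hybridisation, and 10 did not pass (-0.38 to 1.02). The brightest probe set without _x_at or _s_at suffix went the other way, with intensities of 60.5, 73.0 and 88.0 against 22.2, 30.5 and 32.0 (1.02, adjusted p = 0.0515 among such probe sets). With the mean of all its probe sets the difference was -0.34 (adjusted p = 0.234). CFLAR has long and short splice forms, and which of them each probe set reads is not given in the sources used here, so no single direction can be given for the gene.

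**Figure D3:**
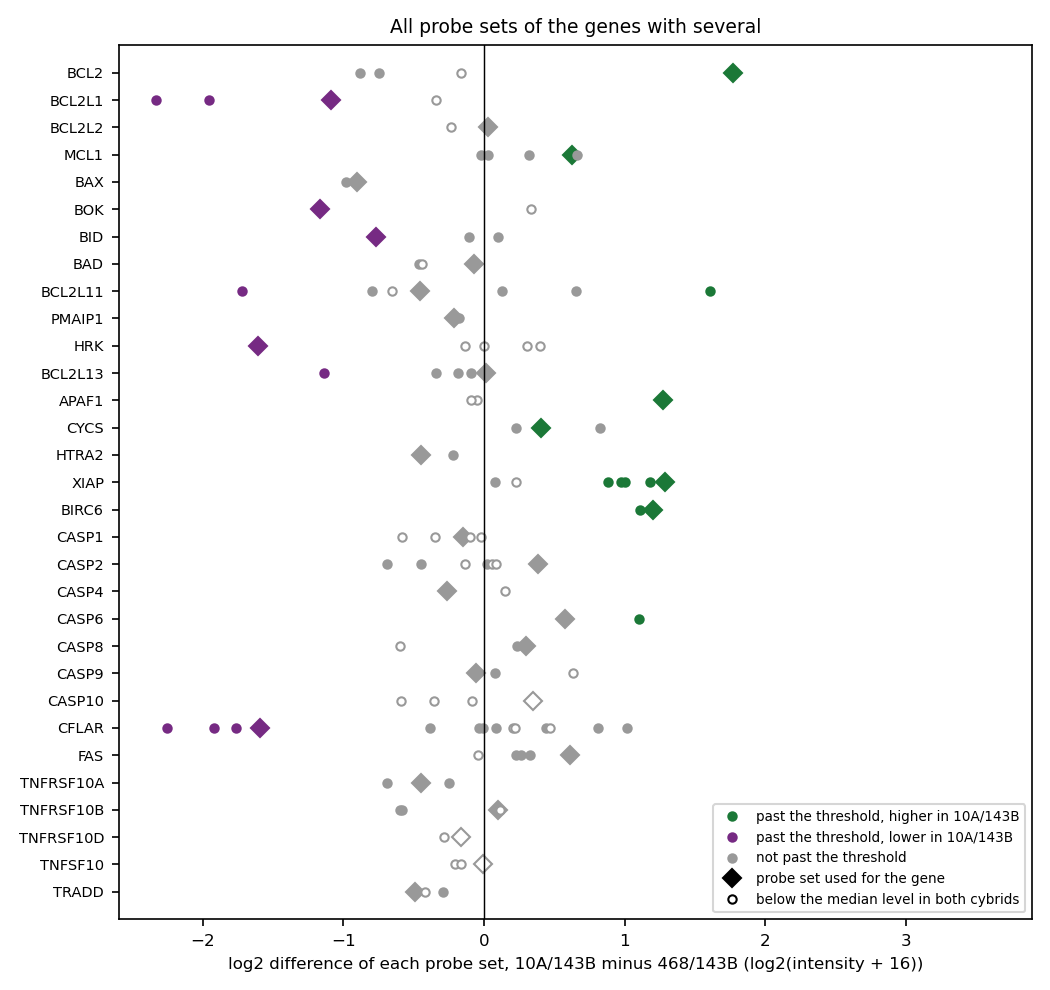
Log2 difference (10A/143B minus 468/143B) of every probe set of the 31 genes that have several, with diamonds for the probe set used and open symbols for probe sets below the median level in both cybrids. Colours show calls in the test of all 41091 probe sets. The probe sets of XIAP passed on 1 side only, those of BCL2L11 on both, and those of CFLAR spread from -2.25 to 1.02.

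Of the receptors, their ligand and their adaptors, FADD was higher in 10A/143B and TNFRSF1A lower. TNFRSF1A, the main receptor of TNF, had intensities of 251, 254 and 236 in 10A/143B and 422, 481 and 495 in 468/143B, and the groups were well apart. It was 1.78-fold lower (log2 -0.83 ± 0.14, adjusted p = 0.00411). FADD, the adaptor that brings caspase 8 to death receptors, had intensities of 719, 685 and 671 against 461, 416 and 396. The 10A/143B arrays were all higher, by 1.59-fold (log2 0.67 ± 0.12, adjusted p = 0.00602). Each of these genes had 1 probe set, and both kept their calls in every alternative in which they could be fitted.

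The other receptors of the set did not pass. FAS had intensities of 152, 193 and 182 in 10A/143B and 112, 103 and 93.1 in 468/143B, without overlap (0.62 ± 0.21, adjusted p = 0.0745, but 0.0269 with the replicate block). Its other probe sets gave -0.04 to 0.33. TNFRSF10A, a receptor of TRAIL, had 95.7, 103 and 111 against 89.3, 232 and 221, so that replicate 1 of 468/143B overlapped the 10A/143B arrays (-0.45 ± 0.37, adjusted p = 0.477). TNFRSF10B, the other signalling TRAIL receptor, had 1184, 1082 and 1121 against 1053, 1060.1 and 1098 (0.10 ± 0.10). Its other probe sets gave -0.60 to 0.11, none past the threshold. The decoy receptor TNFRSF10D and TRAIL itself, TNFSF10, had intensities of 4.96 to 16.1 and 1.49 to 9.32 over the 6 arrays, below the median level. TRADD, the adaptor of TNFRSF1A, had 97.0, 72.0 and 71.0 against 129.8, 112 and 125 (-0.49 ± 0.24, adjusted p = 0.208, and 0.0265 on 6 arrays).

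Across a wider list of 76 other measured genes of apoptosis and TNF receptor signalling, 10 were higher and 12 lower (28.9% against 22.7% of all genes), with a median log2 difference of -0.10. The list was 17 higher and 17 lower on 6 separate arrays. The largest increases were those of TRAF3 and TRAF5, adaptors of TNF family receptors, and USP9X, a deubiquitinase that stabilises MCL1. TRAF3 had intensities of 452, 407 and 446 against 129, 133 and 144 (3.04-fold, log2 1.60 ± 0.15, adjusted p = 4.8e-04). TRAF5 was 3.00-fold higher (1.58 ± 0.28) and USP9X 2.92-fold (1.55 ± 0.19). The largest decreases were those of PEA15, a death effector domain protein that binds FADD, PYCARD, the inflammasome adaptor, and DEDD2, also of the death effector domain family. PEA15 had intensities of 1024, 982 and 982 against 2436, 2610.3 and 2557 (2.48-fold, log2 -1.31 ± 0.10, adjusted p = 2.61e-04). PYCARD was 2.38-fold lower (-1.25 ± 0.27) and DEDD2 2.11-fold (-1.08 ± 0.14). The groups did not overlap for TRAF3, TRAF5, USP9X, PEA15, PYCARD or DEDD2. Over the whole list they did not overlap for 40 of the 76 genes, against 45.8% of all genes. At or above the median level lay 56 of the 76 genes and 12103 of all 19775. The shares of this list are therefore not matched for level. TNFRSF21, or death receptor 6, is named here after its values were seen. It had intensities of 495, 452 and 393 against 704, 787 and 781 and was 1.61-fold lower (log2 -0.68 ± 0.13, adjusted p = 0.00713).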

How the data were processed

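Deposited were linear intensities for each probe set of the Affymetrix HG-U133 Plus 2.0 array. How the authors summarised, corrected and scaled these intensities is not given in the sources used here. No detection calls were used, and dim means below the median level. Total RNA (5 µg) was biotin-labelled, per the labels' protocols. Groups and replicate numbers came from the source names. Titles number the arrays differently (source-name replicates 2, 3 and 1 are 1, 2 and 3 there), in the same way in both groups, so either numbering pairs the same arrays. Control probe sets were left out, and 41091 probe sets with 1 gene symbol were kept, 41037 of them matched through Entrez identifiers to RefSeq genes of GRCh38.p14. Log2(intensity + 16) was fitted with limma 3.58.1 in R 4.3.3 (eBayes with intensity trend). The genes, lists and tests were chosen with earlier results of these data known, as was the averaging of replicates 2 and 3. Every gene of the set is named, with array values for those past the threshold. From the wider list, up to 3 genes per direction are named for the largest changes. Its IAP and caspase genes and TNFRSF21 are named as well. Same-numbered arrays deviated together from their group means (correlations 0.325, 0.242 and 0.178 over 11466 genes), although replicate 3 deviated most like replicate 2 of the other group. Deviations within a group sum to 0, and replicates 2 and 3 were near duplicates. The 3 correlations are therefore not independent and cannot tell replicate 2 from 3. The source-name numbers were taken to pair the samples. The direction of the differences from the fit was checked on simulated data. These held independent samples of equal variance, so they do not test its p-values for samples made of 1 array or of 2 near duplicates. The number of arrays limits the precision.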

Additional observations from a re-analysis of the deposited data

How the results depend on the processing

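All 16 calls kept their direction and their side of the threshold on 6 separate arrays, with the replicate block, with offsets of 1 and 64, after quantile normalization, after median centring and with the level filter. With the gene length trend removed 15 did. The choice of probe set mattered most. With probe sets averaged by gene, 5 genes of the set were higher and 3 lower. Without _x_at and _s_at probe sets, 5 were higher and 1 lower, and 31 of the 40 genes could be fitted. The called genes APAF1, BIRC6, DIABLO, HTRA2 and TNFRSF1A were not among these, so their calls could not be kept. Of the called genes fitted without suffixed probe sets, MCL1 (-0.024), BOK (0.33), HRK (0.31) and CFLAR (1.02) changed sign. BCL2 did so with the mean of its probe sets (-0.0054). Among genes that had not passed, BCL2L11, CASP4, CASP8, CASP9 and FAS also changed sign without suffixed probe sets. No intensity trend left 5 lower. The replicate block gave 2729 genes lower over all genes, and changed no other count of the set or of the wider list by over 1.5 times when applied to the averaged samples. On 6 separate arrays the block gave 4221 higher and 3529 lower over all genes and 17 higher on the wider list. Without the block, 6 separate arrays gave 3113 lower over all genes and 17 higher on the wider list. Leaving out _x_at and _s_at probe sets gave 1159 lower over all genes. Fitting no intensity trend gave 1108 lower over all genes and 6 lower on the wider list. Leaving out 1 array at a time gave 5 to 8 higher and 4 to 8 lower in the set, 6 to 11 higher and 6 to 12 lower on the wider list, and 1313 to 2670.0 higher and 582 to 1712 lower over all genes. Over all genes the median difference was -0.02, with quantile normalization -0.08 and with centring on array medians -0.11. For the set it was -0.05, -0.17 and -0.14. Higher genes made up 60.8%, 49.9% and 51.2% of all calls. The cause was not tested for any of these. Where replicate 1 of a group is left out, its lone averaged sample is assumed to vary like the other group.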

Other observations

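Genes of the set that lie next to each other on a chromosome did not all share values. On chromosome 2, in the order of protein-coding genes of GRCh38.p14, CFLAR, CASP10 and CASP8 are neighbours. The probe set used for CFLAR gave -1.60 ± 0.11 (log2, SE), although its other probe sets went in both directions. CASP10 gave 0.35 ± 0.24 and CASP8 0.30 ± 0.19. The genes before CFLAR, HYCC2 and NDUFB3, gave 0.57 ± 0.22 and 0.17 ± 0.12, and FLACC1, after CASP8, gave -0.21 ± 0.24. Next to it, TRAK2, which carries mitochondria along microtubules, was higher by 2.10 ± 0.15 (adjusted p = 2.46e-04). The difference between these neighbours was not tested. On chromosome 11, BIRC2 follows YAP1 and BIRC3 and precedes TMEM123. YAP1, the coactivator of the Hippo pathway, was higher by 0.94 ± 0.10 (adjusted p = 7.07e-04) and TMEM123 by 0.54 ± 0.13 (adjusted p = 0.0202), beside 1.29 ± 0.14 for BIRC2. MMP7, after TMEM123, gave -0.02 ± 0.33. On chromosome 18, BCL2 lies between PHLPP1 (-0.14 ± 0.19), a phosphatase of AKT, and KDSR (-0.88 ± 0.15, adjusted p = 0.00499), an enzyme of sphingolipid synthesis. The next gene on either side was higher, ZCCHC2 by 1.49 ± 0.20 (adjusted p = 0.00182) and VPS4B by 0.97 ± 0.15 (adjusted p = 0.00284). BCL2 itself gave 1.78 ± 0.27 on the probe set used, and its other probe sets gave values below 0. Around CASP4, CASP5, CASP1 and CARD16, which gave -0.26, -0.26, -0.15 and 0.09, no gene listed passed. These neighbours were chosen by position, after the values of the set were seen.

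Differences of the 40 genes went up with gene length about as those of all genes did. Spearman's correlation between gene length and difference was 0.225 across the 40 genes and 0.236 across 19735 genes. Genes are not independent replicates, and no test was made.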
